A study of Mus musculus with 4 samples.

Results

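Cells caught in the division cycle were picked out across all lineages of hypoxic mouse lungs. Droplet barcodes entered when they held 1000 or more UMIs (unique molecular identifiers, the counted RNA molecules) from no fewer than 500 genes, with under 15% of the UMIs mitochondrial. It was taken as cycling where at least 3 of 6 genes had a UMI: Mki67, Top2a, Birc5, Cdk1, Cenpf and Nusap1. By this rule 219 of 44835 kept barcodes cycled. The lineage of a barcode was the gene pair with the highest UMI sum, which was Cdh5 and Cldn5 for endothelial cells, Epcam and Cdh1 for epithelial cells, Col1a2 and Col3a1 for mesenchymal cells, and Ptprc and Laptm5 for immune cells. Barcodes with a tie or no UMI of these genes stayed unresolved. Of the cycling barcodes, 139 were endothelial, 72 immune, 4 mesenchymal, 2 epithelial and 2 unresolved. The cells were thus chosen by the measured UMIs of these genes, so the levels of the genes are a description and carry no test.

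All mice were C57BL/6J, were 6 to 8 weeks old per the labels, and spent 6 weeks in hypoxia. There were 2 libraries of WT lungs and 2 of Vegfr2Y949F lungs (called mutant below), a genotype whose name gives a tyrosine change in VEGFR2, the receptor encoded by Kdr. Per the design text of the series, lungs of 2 mice went into each suspension, so a library is a pool and not an animal. Each genotype had a library in a set A and one in a set B, letters whose meaning the labels leave unstated. Hypoxia is shared by all 4 libraries, and no normoxic library was analysed here.

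The libraries were deposited with 11992 to 15160 barcodes and 83606389 to 96521589 UMIs, and the kept barcodes had a median of 4536 to 5742 UMIs per library. Any pair of libraries shared 28 to 54 kept barcode sequences, and in no pair was a shared one cycling in both. Doublets, droplets that held more than 1 cell, were scored and left in, since the rule does not remove them. The cut was set for the highest 8% of doublet scores per library, and scores tied with the cut were not counted as high. High scores took in 24 of the 219 cycling barcodes (10.96%) and 7.52% of the others. A second lineage was counted only where the UMI sum of its gene pair was a large part of the leading sum, and not for any UMI. By this measure 5.94% of the cycling barcodes and 5.25% of the others carried a second lineage.

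A dividing cell licenses its replication origins with the MCM helicase, copies its DNA in S phase with new nucleotides and histones, and then condenses and separates its chromosomes in mitosis. Mki67 coats mitotic chromosomes, Top2a untangles DNA strands, Cdk1 is the kinase that drives entry into mitosis, Birc5 belongs to the chromosomal passenger complex, Cenpf binds kinetochores and Nusap1 bundles spindle microtubules. These 6 genes are highest in G2 and mitosis, so the rule leans towards late cycle stages. In adult lung most endothelial cells are at rest. Sustained hypoxia is known to remodel lung vessels, with proliferation of vessel wall cells.

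Cycling barcodes were deep. Cycling endothelial barcodes had a median of 13704 UMIs against 5160 in the other endothelial barcodes, a ratio of 2.66, and for immune barcodes the medians were 14452 and 3714, a ratio of 3.89. A cell with more RNA has more chances to show 3 genes, so shares are also given after every cell was thinned to 2000 UMIs, which leaves out 5067 shallower barcodes, 8 of them cycling. Around the threshold, 103 barcodes had 2 of the 6 genes with a median of 2 UMIs from them, 42 had exactly 3 with a median of 5, and 110 had all 6 with a median of 54.5. The median total was 12613 UMIs for barcodes with 2 genes, 10604.5 for those with 3 and 16802 for those with 6. The barcodes just outside the threshold were not shallower than those just inside it.

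Mki67 had a UMI in 202 of the 219 cycling barcodes (92.2%), as had Top2a, and Birc5 in 87.2%, Cenpf in 79.9%, Cdk1 in 74.0% and Nusap1 in 70.8%. At 2000 UMIs per cell these shares were 58.3% for Mki67, 62.6% for Top2a, 40.8% for Birc5, 48.3% for Cenpf, 29.9% for Cdk1 and 31.3% for Nusap1. Neutrophils and alveolar type 1 cells, which do not divide, gave the background. In the neutrophil-like cluster (median 3044 UMIs) 2 of 3831 barcodes passed the rule (0.0522%), and both had a high doublet score. In the alveolar type 1-like cluster (median 10557.5 UMIs) 0 of 758 passed, which allows a share of up to 0.396%. A single UMI of any of the 6 genes was found in 2.17% of neutrophil-like, 2.11% of alveolar type 1-like and 3.94% of non-cycling endothelial barcodes, and at 2000 UMIs in 1.28%, 0.543% and 1.21%. Single UMIs were thus found in a few percent of cells in all 3 populations, while 3 genes together were rare in the first 2.

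Genes of the lineage pairs were also seen outside their own lineage in some cycling cells. The counts of a lineage's own pair follow from the rule and are a description. Among the 139 cycling endothelial barcodes Cldn5, a tight junction protein, had a UMI in 136 and Cdh5, the endothelial cadherin, in 130. Epcam and Cdh1 had none, while the collagen gene Col1a2 was seen in 24 and the leukocyte phosphatase Ptprc in 8. Among the 72 cycling immune barcodes Laptm5 was seen in 71 and Ptprc in 67. Epcam was seen in 18 of these, and Cdh5 in 9. Of the 4 cycling mesenchymal barcodes 3 carried a second lineage and 2 a high doublet score, so the mesenchymal value rests on very few cells.

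Endothelial cells gave the largest number of cycling cells, and the order of the shares depended on the library. Pooled over libraries the immune share was the highest, but it was below the endothelial share in WT A, level with it in mutant A and above it in both set B libraries, and at 2000 UMIs below it in both set A libraries. Cycling barcodes made up 1.03% of the 6997 immune barcodes, 0.474% of the 29333 endothelial, 0.172% of the 1165 epithelial and 0.0657% of the 6086 mesenchymal barcodes. The endothelial share was 0.532% in WT A (47 of 8833, 95% Wilson interval 0.400 to 0.707%), 0.169% in WT B (11 of 6528, 0.0941 to 0.302%), 0.527% in mutant A (41 of 7778, 0.389 to 0.714%) and 0.646% in mutant B (40 of 6194, 0.475 to 0.878%). WT B stood below the other 3 libraries, whose intervals overlapped. Intervals and upper limits cover counting error only.

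At 2000 UMIs the endothelial shares were 0.348%, 0.0997%, 0.301% and 0.409% in the same order, and WT B was again the lowest. With UMIs as counted the WT mean was 0.3503% ± 0.257 (SD, n = 2 libraries). The mutant mean was 0.586% ± 0.0839 (SD, n = 2), a difference of 0.236 percentage points. The values that follow in this paragraph also use UMIs as counted. An exact two-sided permutation test over the 2 against 2 libraries gave p = 0.667, in a design that cannot go below 0.333. Within set A the difference was -0.00497 percentage points and within set B 0.477. The difference was thus close to 0 in set A, and without WT B it was 0.0544 percentage points.

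The immune share was 0.488% in WT A (4 of 819), 1.11% in WT B (22 of 1980), 0.529% in mutant A (14 of 2649) and 2.07% in mutant B (32 of 1549). Both set B libraries lay above both set A libraries, and the same held at 2000 UMIs, with 0.141%, 0.611%, 0.170% and 1.16%. Neutrophil-like barcodes made up 71.2% of the immune lineage in WT A and 69.5% in mutant A, against 25.3% in WT B and 24.9% in mutant B. With that cluster left out, a comparison chosen after seeing the data, the immune share was 1.69% in WT A (4 of 236), 1.49% in WT B (22 of 1480), 1.73% in mutant A (14 of 808) and 2.66% in mutant B (31 of 1164), so that the sets no longer separated and all 4 intervals overlapped. For the whole immune lineage, neutrophil-like barcodes included and UMIs as counted, the WT mean was 0.7998% ± 0.440 (SD, n = 2). The mutant mean was 1.30% ± 1.09 (SD, n = 2), with an exact permutation p of 0.667. In the same whole lineage, leaving out mutant B turned the difference from 0.497 to -0.271 percentage points. The mesenchymal share was 0.0638%, 0%, 0.0703% and 0.115%, from 1, 0, 1 and 2 cells. Epithelial cycling cells numbered 0, 0, 1 and 1. Over all kept barcodes the share was 0.444%, 0.322%, 0.466% and 0.742%, so that both mutant libraries lay above both WT libraries, with an exact permutation p of 0.333 that becomes 0.556 after Benjamini-Hochberg adjustment over the 5 shares tested. At 2000 UMIs the order was no longer that of the genotypes (0.286%, 0.179%, 0.238% and 0.440%).

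**Figure D1:**
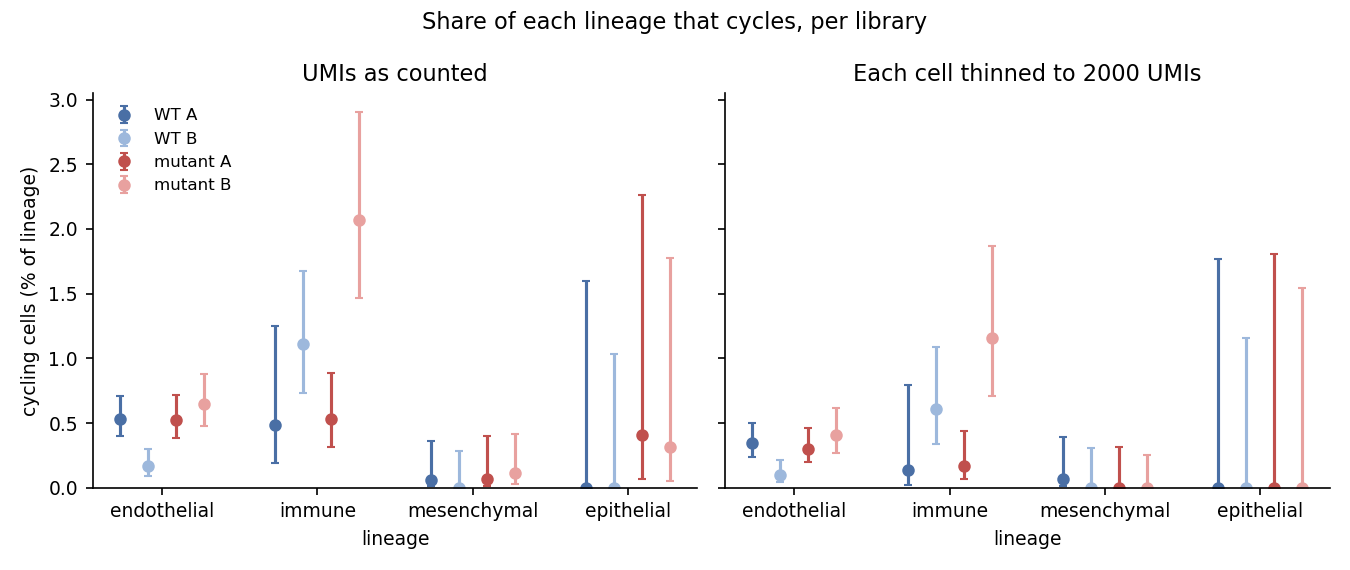
Share of each lineage that cycles, in percent, for the 4 libraries, with 95% Wilson intervals as bars; the left panel uses UMIs as counted and the right panel cells thinned to 2000 UMIs. WT B is the lowest of the endothelial points (0.169%) and mutant B the highest of the immune points (2.07%).

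To place the cycling cells among finer classes, all kept barcodes were clustered without cell cycle genes, and clusters were named as "-like" from marker genes. The 139 cycling endothelial barcodes held 59 general capillary-like and 17 aerocyte-like cells, 4 arterial-like, 2 venous-like and 2 lymphatic-like cells, and 46 in clusters that stayed unnamed. The rest lay in clusters named for classes that are not endothelial, 3 of them B cell-like. General capillary cells are the capillary type known to proliferate and renew the vessel bed, and aerocytes are wide, thin capillary cells through which gas is exchanged. The general capillary-like share was 0.505% over all libraries (59 of 11682) and 0.603%, 0.206%, 0.606% and 0.532% in WT A, WT B, mutant A and mutant B. The low value of WT B was thus seen within this class too.

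The aerocyte-like share was 0.456% (17 of 3732), with 8, 1, 6 and 2 cycling cells in the same order of libraries. All 17 lay in the deeper of the 2 aerocyte-like clusters (17 of 2035, median 15639 UMIs) and 0 of 1697 in the other (median 5342 UMIs). At 2000 UMIs the general capillary-like share was 0.3504% and the aerocyte-like share 0.140%. The cycling aerocyte-like cells had lower levels of every one of the 6 aerocyte markers than the others of the class: Car4, the carbonic anhydrase of the aerocyte surface, stood at 569 against 1187 CPM (the gene's UMIs scaled to a common total per sum of cells, here over all libraries), Ednrb, an endothelin receptor, at 185 against 530, and the transcription factor Tbx2 at 135 against 379. In cycling general capillary-like cells Gpihbp1, which anchors lipoprotein lipase, stood at 639.8 against 1014 CPM, Cxcl12 at 866 against 1488 and the stem cell factor receptor Kit at 257 against 291. Of the 6 markers of this class Plvap alone was higher, at 338 against 284 CPM. These levels pool cells of 4 libraries and have no replicate error. The other aerocyte-like cells included the shallower cluster. Its mean log2 ratio of the 6 aerocyte markers to all other clusters was higher than that of the deeper cluster (3.32 against 1.97). The part of the cluster in the lower marker levels was not tested.

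Lymphatic-like cycling cells (2 of 370) came from mutant B alone, and arterial-like ones (4 of 740) from mutant A (1) and mutant B (3). WT A had 0 of 159 and WT B 0 of 175 arterial-like cells cycling, and counts this small cannot tell the genotypes apart. No cycling cell was found among 870 adventitial fibroblast-like, 843 pericyte-like, 204 group 2 innate lymphoid-like, 138 natural killer-like and 87 ciliated cell-like barcodes, which allows shares of up to 0.345%, 0.356%, 1.47%, 2.17% and 3.45%.

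Some immune classes differed by more than their counting intervals, which pool cells of 4 libraries and do not cover the spread between libraries. The dendritic-like and alveolar macrophage-like intervals overlapped, and both lay above the T cell-like interval. The B cell-like interval (0.716 to 3.36%) overlapped each of these. Conventional dendritic-like cells had the highest share, 5.23% (15 of 287, interval 3.19 to 8.44%), and alveolar macrophage-like cells, the resident phagocytes that renew themselves in the airspace, had 4.55% (24 of 527, 3.08 to 6.69%). T cell-like barcodes followed with 1.94% (30 of 1550, 1.36 to 2.75%) and B cell-like ones with 1.56% (6 of 385). Of these 6 B cell-like barcodes 2 were immune by their lineage genes, 3 endothelial and 1 epithelial, and 4 had no high doublet score. Classical monocyte-like cells, which come from the blood, had 0.121% (1 of 825). The order changed with depth: at 2000 UMIs the share was 3.16% for alveolar macrophage-like, 0.946% for T cell-like and 0.772% for dendritic-like cells (2 of 259).

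Alveolar macrophage-like cells cycled in every library, with 6.67% in WT A (4 of 60), 3.23% in WT B (7 of 217), 6.06% in mutant A (8 of 132) and 4.24% in mutant B (5 of 118). Dendritic-like cells did so too, with 8.00%, 5.36%, 7.55% and 3.09% from 2, 6, 4 and 3 cells. In both classes the set A libraries were above the set B libraries and the genotypes overlapped. These orders rest on 2 to 8 cycling cells per library, and the intervals of all libraries overlapped in both classes. T cell-like cells went the other way: 0 of 69 cycled in WT A, 0.858% in WT B (6 of 699), 0.341% in mutant A (1 of 293) and 4.70% in mutant B (23 of 489). Mutant B thus held 23 of the 30 cycling T cell-like barcodes. The mutant B interval (3.15 to 6.96%) lay above those of WT B and mutant A but overlapped that of WT A (0 to 5.27%).

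**Figure D2:**
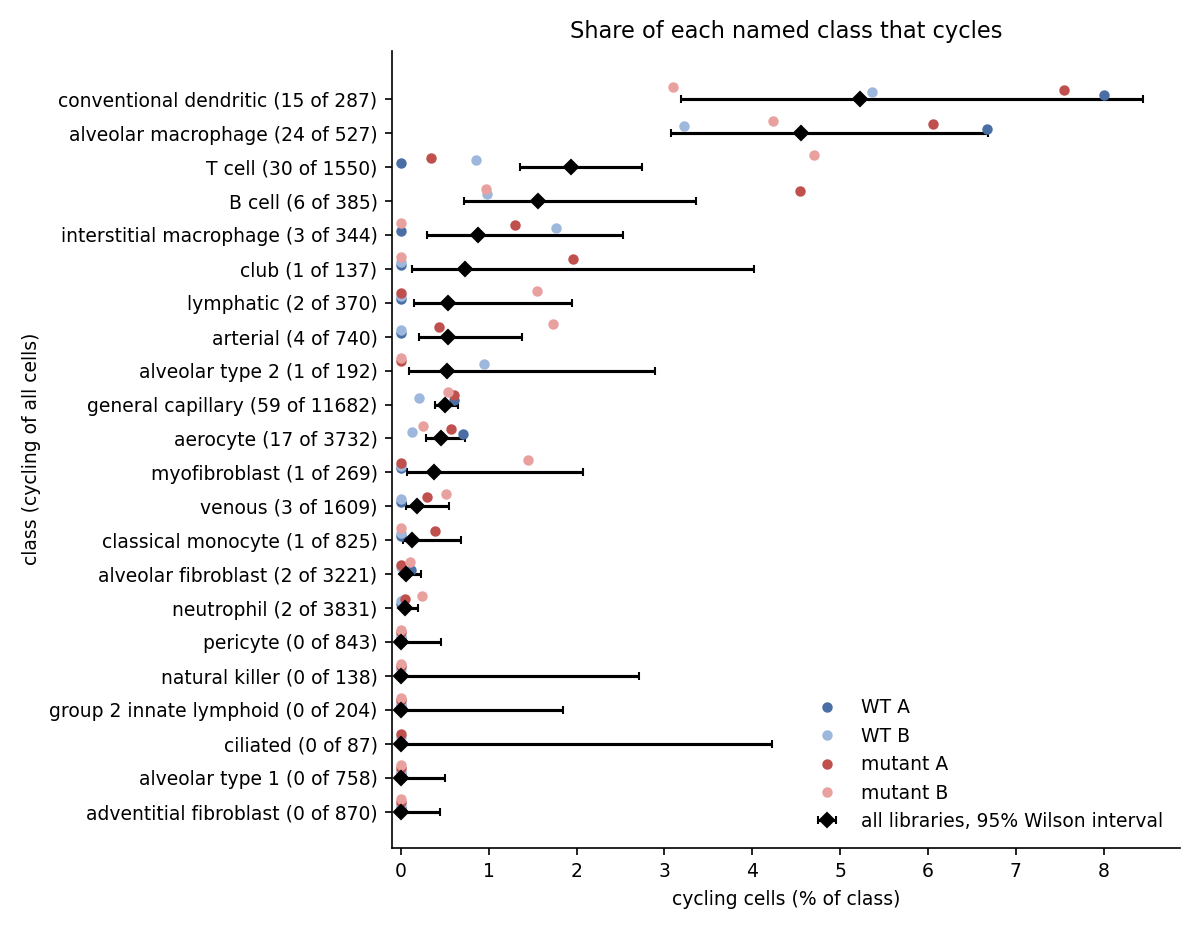
Share of each named class that cycles, in percent: black diamonds give all libraries together with the 95% Wilson interval, and coloured points give the libraries with at least 20 cells of the class. Dendritic-like (5.23%) and alveolar macrophage-like cells (4.55%) stand at the top, and the T cell-like point of mutant B (4.70%) lies far from the other libraries of its class.

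Stages of the cycle were read from 43 S phase and 40 G2/M genes, without the 6 genes of the rule and at 2000 UMIs per cell. In endothelial cells 18 of 133 had the larger sum from S genes (13.5%), 108 from G2/M genes, and 7 were tied. The S share was 9.09% in WT A (4 of 44), 9.09% in WT B (1 of 11), 12.5% in mutant A (5 of 40) and 21.1% in mutant B (8 of 38). With UMIs as counted these shares were 14.9%, 9.09%, 9.76% and 17.5%, and the genotypes overlapped. In immune cells the S share at 2000 UMIs was 25 of 71 (35.2%), with 50% in WT A (2 of 4), 31.8% in WT B (7 of 22), 23.1% in mutant A (3 of 13) and 40.6% in mutant B (13 of 32). The immune share was above the endothelial one within every library. All of these cells passed a rule made of late genes, so the shares describe the chosen cells and not the full cycle. With 4 to 44 cells per library no genotype test was made.

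The expression of cycling cells was compared with that of the other cells of the lineage in the same library, as log2 of the ratio of CPM + 10, given as the mean ± SD of 4 libraries. This contrast contains the rule, so no test is given. In endothelial cells 223 of 8880 genes with a mean of at least 10 CPM in either state were at least 2-fold higher in all 4 libraries (2.51%) and 8 at least 2-fold lower (0.0901%). Differences of at least 2-fold were thus mostly upward; without barcodes of high doublet score 14 genes were lower, and with at least 4 of the 6 genes required 20. Mki67 stood at 686, 742, 561 and 549 CPM in cycling cells of WT A, WT B, mutant A and mutant B and at 0.809 to 1.34 in the others, and Top2a at 659, 577, 483 and 612 against 2.50 to 3.17. The libraries did not overlap between the states for either gene.

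DNA replication genes were higher by moderate ratios. Of 28 measured genes of replication licensing and the replication fork, 12 were at least 2-fold higher in all 4 libraries, with a list median of 1.28. Mcm3, a subunit of the MCM helicase, stood at 83.6, 85.5, 60.0 and 81.6 CPM against 17.9 to 23.2 (1.54 ± 0.18). Pcna, the sliding clamp of the polymerase, stood at 212, 219, 239 and 300.5 against 112 to 162 (0.77 ± 0.24), a gene that non-cycling endothelial cells also held. Of 8 nucleotide supply genes 6 passed, led by Rrm2, the regulated subunit of ribonucleotide reductase, at 112, 139, 93.2 and 106 CPM against 1.28 to 1.93 (3.40 ± 0.20).

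Histones and their partners came next. Of 13 replication histone genes 6 passed, although most of these mRNAs carry no poly(A) tail and the libraries were made from polyadenylated RNA, per the labels. H2ac8 stood at 268, 347, 209 and 480.0 CPM against 1.41 to 1.73 (4.80 ± 0.48). H1f5 stood at 72.1, 278, 41.8 and 167 CPM and Hist1h2ap at 23.1, 214, 14.99 and 265, so both were higher in both set B libraries than in both set A libraries. Of 16 genes of histone supply, variants and assembly 12 passed. Among them Hmgb2, a chromatin protein of dividing cells, stood at 2395, 2532, 1572 and 1912 CPM against 138 to 163 (3.73 ± 0.40).

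Mitosis gave the largest differences. Of 32 genes of the kinetochore, spindle and kinesins 31 passed (median 2.99), of 10 cytokinesis genes all 10 (median 3.12), of 23 mitotic cyclins, kinases and checkpoint genes 16 (median 2.18) and of 13 condensin, cohesin and chromosome structure genes 10 (median 2.42). Ube2c, which charges the anaphase-promoting complex with ubiquitin, stood at 509, 780, 358 and 402 CPM against 2.57 to 2.94 (5.29 ± 0.50). Prc1, the bundler of the central spindle, stood at 433, 571, 299 and 387 CPM against 0.889 to 1.20 (5.25 ± 0.39), and Anln, a scaffold of the cleavage furrow, at 229, 150, 177 and 186 CPM against 0.243 to 0.405 (4.23 ± 0.24). In Ube2c and Prc1 WT B was the highest library and mutant A the lowest.

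Some regulators of the cycle hardly differed. Ccnd1, the G1 cyclin that couples growth signals to the cycle, stood at 333, 315, 421 and 332 CPM against 271 to 429 (0.01 ± 0.15), and among 8 G1 cyclins and their kinases 1 passed, Ccne2 (1.55 ± 0.44). Cdkn1a, which encodes the inhibitor p21, stood at 930, 1704, 1177 and 1286 CPM against 941 to 1353 (0.17 ± 0.21), so its abundant mRNA overlapped between cycling and resting cells. Of 19 cell cycle brakes 2 passed, and both are inhibitors of Cdk4 and Cdk6: Cdkn2c at 192, 155, 111 and 170 CPM against 10.9 to 17.0 (2.79 ± 0.28) and Cdkn2d at 170, 144, 85.7 and 147 against 33.0 to 46.8 (1.52 ± 0.29). Foxm1, the transcription factor of late cycle genes, was the highest of the 5 of 15 transcription factors that passed, with 85.1, 74.8, 56.8 and 69.3 CPM against 1.64 to 2.09 (2.77 ± 0.21).

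Lists outside the cycle lay near the median of all genes, which was -0.00. None of 18 VEGF receptor and tip cell genes (median -0.14), 16 hypoxia response genes (-0.14), 11 heat shock genes (-0.10), 18 interferon response genes (-0.02) and 7 MHC class II genes (-0.27) was at least 2-fold higher or lower in all 4 libraries. Of all genes 2.51% were higher and 0.0901% lower by this measure, so 0 in lists this short is near the share of all genes. Kdr stood at 375, 331, 331 and 358 CPM in cycling cells against 350 to 452 (-0.24 ± 0.14), below the other cells of its library in all 4. Vegfa, its ligand, stood at 329, 283, 338 and 305 against 379 to 448 (-0.35 ± 0.08).

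Outside these lists the highest ratios belonged to Pclaf, the PCNA clamp-associated factor (3.57 ± 0.12, at 108, 112, 101 and 126 CPM against 0.115 to 0.455), and to Iqgap3, Lockd, Diaph3, Esco2, Mxd3, Nav2, Sgo2a, Depdc1a and Cenpq. Esco2 and Sgo2a act on sister chromatid cohesion, and Diaph3 and Iqgap3 on the cytoskeleton. The lowest ratios belonged to genes of other cells: the haemoglobin genes Hbb-bs (-3.22 ± 1.91), Hba-a2 and Hbb-bt, the alveolar genes Sftpc (-2.92 ± 1.19), Sftpa1 and Ager, the club cell gene Scgb1a1, the myeloid genes S100a9 and Lyz2, and a Ccl21a gene of lymphatic endothelium. The 6 neutrophil markers summed to 5.77, 26.7, 697 and 4.08 CPM in cycling endothelial cells and 336, 252, 1211 and 98.5 in the others, and the 6 erythroid markers, 2 of them at 0 in cycling cells, to 14.4, 16.0, 33.2 and 741 against 489 to 966. The part of RNA from other cells in these ratios was not tested.

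**Figure D3:**
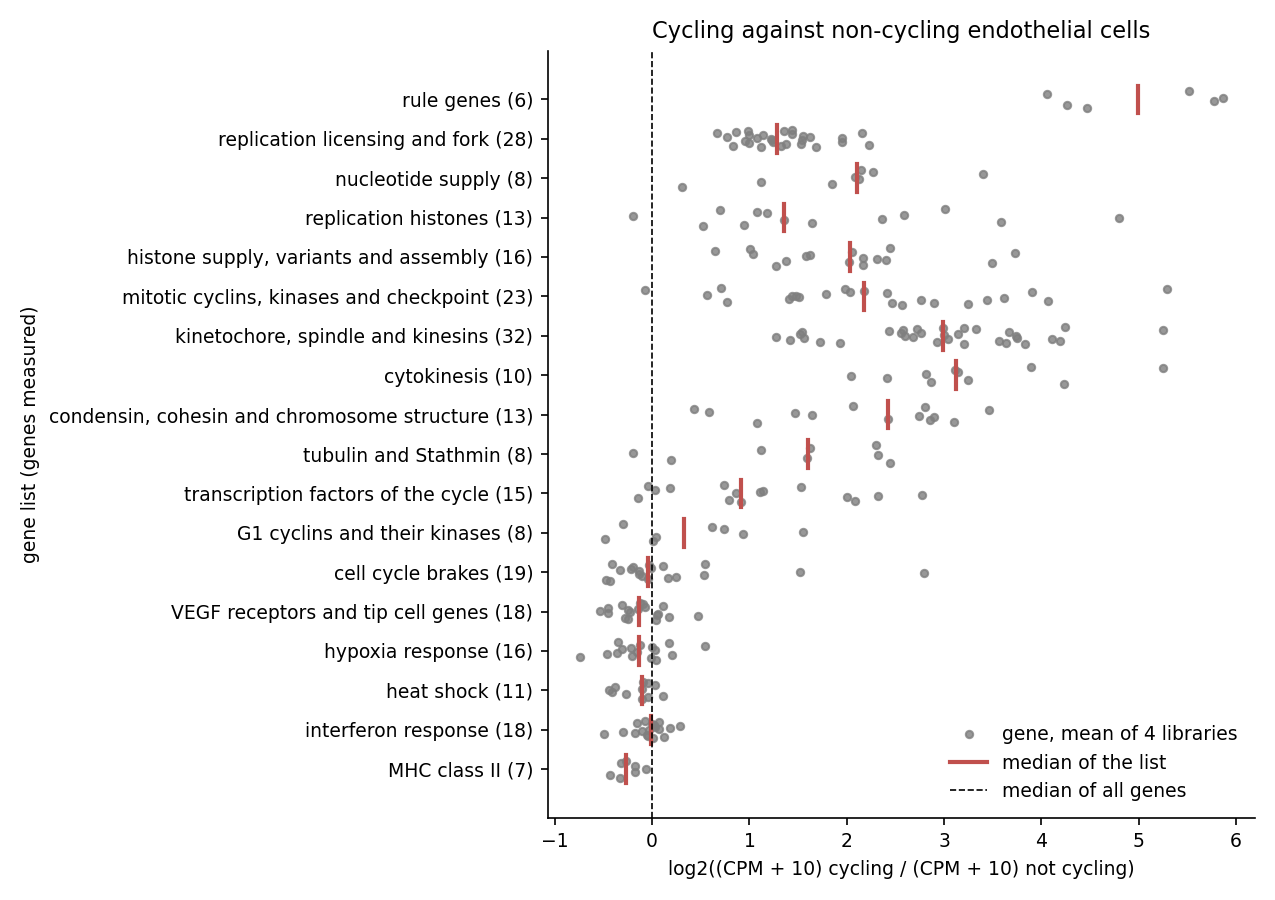
Log2 ratio of CPM + 10 between cycling and non-cycling endothelial cells, 1 grey point per gene (mean of 4 libraries) and a red line at the median of each list; the dashed line is the median of all genes (-0.00). Lists of mitosis lie furthest right (cytokinesis 3.12, kinetochore 2.99), replication lists lie between, and the VEGF, hypoxia and interferon lists lie around 0.

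The promoters of these groups were also searched for a sequence feature the rule did not use. Late cycle genes are known to be bound by the DREAM and MuvB complexes at the CHR element (TTTGAA), often with CCAAT boxes bound by NF-Y nearby. Promoters of 3 genes of the rule, picked because each holds 2 CHR matches, are shown with that of Mcm3 as a replication gene without one, each with 250 bases before and 50 after the annotated start, from RefSeq on build GRCm38.p6, written 5′ to 3′ along the gene. Capitals mark TTTGAA or its reverse TTCAAA, and CCAAT or its reverse ATTGG. Mki67 is at chr7:135716330-135716629, Top2a at chr11:99024140-99024439, Cdk1 at chr10:69352863-69353162 and Mcm3 at chr1:20820263-20820562, all on the minus strand.
Mki67: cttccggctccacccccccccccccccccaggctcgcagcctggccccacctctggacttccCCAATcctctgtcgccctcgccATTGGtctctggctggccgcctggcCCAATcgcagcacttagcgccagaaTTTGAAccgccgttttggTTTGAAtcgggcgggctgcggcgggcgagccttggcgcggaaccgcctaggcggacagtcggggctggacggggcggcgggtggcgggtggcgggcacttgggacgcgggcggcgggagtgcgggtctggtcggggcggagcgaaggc
Top2a: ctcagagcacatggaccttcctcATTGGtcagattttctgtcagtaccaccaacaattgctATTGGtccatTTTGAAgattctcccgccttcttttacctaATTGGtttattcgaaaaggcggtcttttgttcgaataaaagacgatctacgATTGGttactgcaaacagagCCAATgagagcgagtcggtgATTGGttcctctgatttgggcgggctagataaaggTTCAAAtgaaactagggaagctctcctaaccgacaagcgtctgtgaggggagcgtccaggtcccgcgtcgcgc
Cdk1: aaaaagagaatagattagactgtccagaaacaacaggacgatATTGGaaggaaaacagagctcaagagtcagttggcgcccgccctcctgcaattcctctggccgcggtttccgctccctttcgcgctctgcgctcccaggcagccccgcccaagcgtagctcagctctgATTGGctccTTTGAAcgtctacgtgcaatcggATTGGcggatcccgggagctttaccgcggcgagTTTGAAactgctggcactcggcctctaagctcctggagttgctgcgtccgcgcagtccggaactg
Mcm3: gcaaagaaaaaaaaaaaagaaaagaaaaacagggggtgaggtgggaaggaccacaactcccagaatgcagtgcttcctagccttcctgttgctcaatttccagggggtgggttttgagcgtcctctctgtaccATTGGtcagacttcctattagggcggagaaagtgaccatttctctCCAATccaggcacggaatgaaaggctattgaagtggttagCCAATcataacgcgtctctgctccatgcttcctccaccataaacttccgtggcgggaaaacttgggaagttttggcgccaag

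Mki67 has TTTGAA starting 116 and 98 bases before the start, Cdk1 at 71 and 15 bases before, and Top2a has TTTGAA at 179 and TTCAAA at 23 bases before. The window of Mcm3 has 3 CCAAT boxes and no CHR match. Over all 32851 promoter windows of the table, 17.9% held a CHR match and 37.4% a CCAAT box, on either strand. Counted by gene, 20.2% of 27025 symbols had a CHR match and 41.1% a CCAAT box. A CHR match was found for 4 of the 6 genes of the rule (not Birc5 and Nusap1), 21 of 28 kinetochore, spindle and kinesin genes with a window (75%), 7 of 8 cytokinesis genes and 10 of 18 mitotic cyclins, kinases and checkpoint genes. It was found for 4 of 23 replication licensing and fork genes, 1 of 9 nucleotide supply genes, 0 of 5 G1 cyclins and their kinases and 1 of 16 VEGF receptor and tip cell genes. Among other S phase groups it was found for 8 of 18 replication histones (44.4%) and 6 of 15 genes of histone supply, variants and assembly (40%). A match is a description of letters and shows no binding.

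In immune cells the same contrast mixed cell types. Of 8570 genes 192 were at least 2-fold higher in all 4 libraries (2.24%) and 194 lower (2.26%). Of 28 licensing and fork genes 15 passed (median 1.74) and of 32 kinetochore, spindle and kinesin genes 23 (median 2.33), with 4 cycling immune cells in WT A limiting every count. Mcm5, a helicase subunit, stood at 49.8, 112, 85.9 and 193 CPM in cycling cells against 5.23 to 10.1 (2.62 ± 0.62), and Tubb5, a beta tubulin, at 1593, 1621, 1569.5 and 1476 against 76.1 to 148 (3.74 ± 0.44). Pclaf again led the genes outside the lists (4.84 ± 0.87), followed by Knstrn, Ccdc34 and Anp32b. The lowest were neutrophil genes, S100a9 (-6.80 ± 3.86), S100a8 (-6.44 ± 2.33), Retnlg, Acod1 and Csf3r. The neutrophil-like cluster held 3831 barcodes, of which 2 cycled.

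Within single classes, with all libraries summed, the cycle lists were higher as well. In T cell-like cells all 30 measured licensing and fork genes and all 32 kinetochore, spindle and kinesin genes were at least 2-fold higher in cycling cells, where 15.5% of all 8419 genes were and 11.1% were lower. In alveolar macrophage-like cells these counts were 27 of 28 and 31 of 32, with a background of 6.07% higher and 2.85% lower, and in dendritic-like cells 17 of 23 and 23 of 28, with a background of 7.98% higher and 2.45% lower. In cycling alveolar macrophage-like cells most markers used to name the class were lower than in the other cells, and Krt79 alone was higher. Ear2 stood at 787 against 1256 CPM, Mrc1 at 664 against 903 and Krt79 at 506 against 417. Chil3, a chitinase-like protein, stood at 9807 against 12094 CPM. The GM-CSF receptor gene Csf2ra stood at 253 against 299 and Pparg, the transcription factor of this lineage, at 140 against 134. Inhba, which encodes an activin subunit, stood at 10.5 against 168 CPM.

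Among markers of conventional subsets in dendritic-like cells, Xcr1 stood at 86.5 CPM in cycling cells against 75.7, Clec9a at 55.4 against 58.8 and Cd209a at 104 against 122. Other genes of conventional dendritic cells went both ways. Batf3 was higher at 55.4 against 23.0, Irf8 at 322 against 199 and the integrin gene Itgae at 204 against 136 CPM. The receptor gene Flt3 was lower at 86.5 against 109 and the factor Zbtb46 at 48.5 against 64.2 CPM. Genes of mature, migrating dendritic cells were lower, with the chemokine receptor gene Ccr7 at 104 against 380 and Fscn1, an actin bundler, at 13.8 against 86.5 CPM. These are pooled levels of 15 cycling cells.

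The cycling T cell-like cells stood apart from the rest of their class. The genes below were chosen after their values were seen. Over all libraries Gzma and Gzmb, the granzymes of killer lymphocytes, stood at 1973 against 16.9 and 970 against 18.3 CPM, Nkg7, a cytotoxic granule protein, at 1483 against 51.9, the chemokine Ccl5 at 2604 against 268 and Ifng at 178 against 23.4. Cd8b1 stood at 493 against 66.7 CPM and Cd8a at 229 against 19.4, while Cd4 was at 52.2 against 82.9. Genes of naive and memory T cells were lower in this sum: the interleukin 7 receptor gene Il7r stood at 67.3 against 649 and the transcription factor Lef1 at 128 against 520. Foxp3, the factor of regulatory T cells, had a UMI in 1 of the 30 cells. The T cell receptor genes were present in both, with Cd3e at 241 against 238 CPM.

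Since 23 of the 30 came from mutant B, the genes were also compared within libraries. In mutant B alone Gzma stood at 1942 against 46.3 CPM, Gzmb at 1058 against 28.4, Cd8b1 at 527 against 81.1 and Il7r at 64.9 against 621. The 6 cycling cells of WT B had Gzma at 2236 against 2.98 CPM, Gzmb at 483 against 19.3, Cd8b1 at 318 against 76.1 and Il7r at 88.9 against 705. The direction of these 4 genes was the same in both libraries. Cycling T cell-like cells had a median of 17048.5 UMIs, and the non-cycling ones also held endothelial RNA, with Cldn5 at 251 against 13.5 CPM. Without the barcodes of high doublet score Cldn5 stood at 63.8 against 13.6 and Gzma at 18.9 against 1982 in non-cycling and cycling cells.

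**Figure D4:**
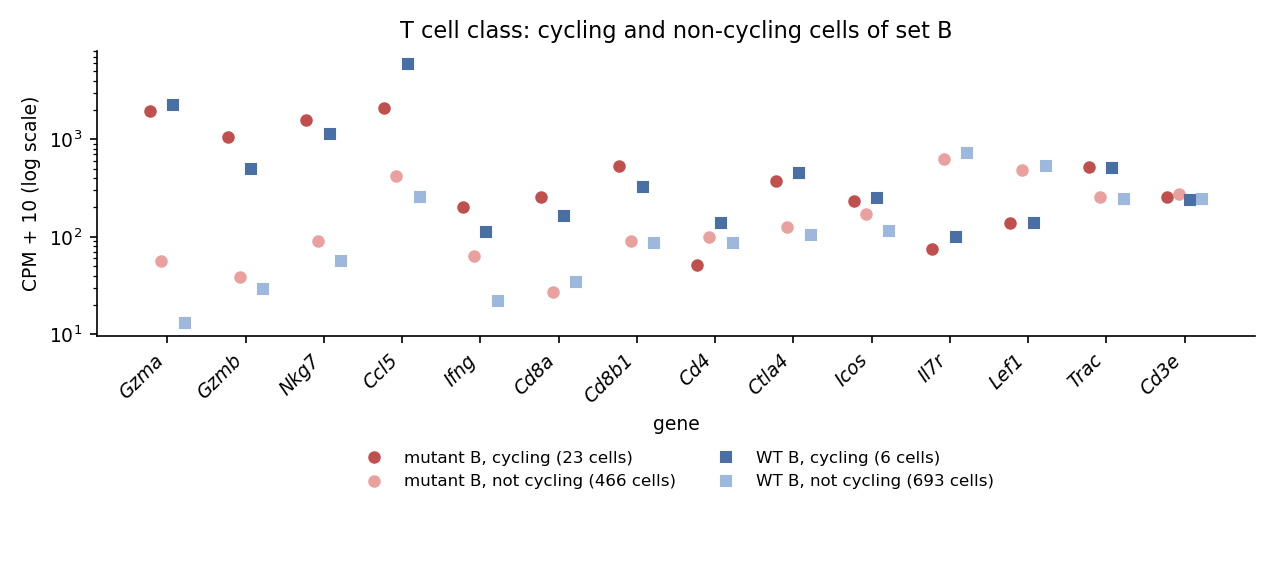
Levels of 14 genes (CPM + 10, log scale) in cycling and non-cycling T cell-like cells of the set B libraries, as sums over the cells of each library. Granzyme, Nkg7, Ccl5 and Cd8 genes are higher in cycling cells and Il7r and Lef1 lower in both libraries, while Cd3e is level; Cd4 is lower in mutant B and not in WT B.

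The genotypes were then compared within cycling endothelial cells, a contrast the rule did not use. UMIs were summed over the 47, 11, 41 and 40 cells of WT A, WT B, mutant A and mutant B, and 7797 genes were tested with edgeR's quasi-likelihood test. No gene was called at a Benjamini-Hochberg adjusted p under 0.05 (0%), against 230 at an unadjusted p under 0.05 (2.95%), and DESeq2 also called 0, with 55 at an unadjusted p under 0.05. Leaving out WT A gave 2 calls, leaving out WT B 10, leaving out mutant A 43 and leaving out mutant B 26, where the lone library is assumed to vary like the other genotype's, and the set letter as a replicate block gave 9. These p-values measure the spread between 2 pools per genotype. The smallest p belonged to the chemokine gene Ccl2, with 1.44, 0, 28.9 and 25.8 CPM (log2 fold change 4.38, SE 0.83; edgeR adjusted p = 0.99995). It was called with the replicate block (adjusted p = 0.01512), without the filter on low counts (0.000619) and without mutant B (0.0398). It rests on few cells, as 1 mutant A barcode held 23 of its 47 UMIs (48.9%).

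Kdr, the gene of the mutated receptor, had a log2 fold change of -0.04 (SE 0.24), with overlapping libraries. Plvap, the diaphragm protein of fenestrated and activated endothelium, stood at 153, 134, 192 and 570 CPM, both mutant libraries above both WT libraries (1.39, SE 0.43; unadjusted p = 0.00726 and adjusted p = 0.99995 by edgeR). Without mutant B the value was 0.38 (adjusted p = 0.996), without mutant A 1.98 (7.55e-08), and without the filter on low counts 1.41 (0.00112). In non-cycling endothelial cells it stood at 123, 161, 245 and 339 CPM, in the same order of genotypes, and the test for a different change in cycling cells gave 0.18 (SE 0.24). Cdkn1a (-0.06, SE 0.28) and Cxcr4, the receptor of Cxcl12 (0.14, SE 0.56), did not pass. Esm1 and Angpt2, genes of tip cells, did not pass the filter on low counts. Without that filter Esm1 had 4.23 (edgeR adjusted p = 0.003173) and Angpt2 2.43 (adjusted p = 0.99962), and Esm1 had 23 of its 39 UMIs in 1 mutant B barcode.

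Prc1, Cdc20, Ifit1, Ifit3 and Ifi47 were chosen after their values were seen. By lists, the genes of mitosis leaned lower and the interferon genes higher in the mutant. edgeR called no member of either list in the test as described. In other settings it called 2 interferon genes without the filter on low counts, 1 with the replicate block and 2 without mutant A. Of 32 kinetochore, spindle and kinesin genes 30 had a log2 fold change below 0 (median -0.52), where 49.1% of all genes tested had, and in 23 both mutant libraries lay below both WT libraries, where 14.9% of all genes did. Prc1 stood at 433, 571, 299 and 387 CPM (-0.52, SE 0.26). In Cdc20, the activator of the anaphase-promoting complex, the libraries overlapped by a small margin, with 153, 315, 106 and 154 CPM. Of the replication licensing genes 19 of 27 were lower (median -0.18). In non-cycling endothelial cells, where these genes are near 0, 22 of 29 kinetochore genes were higher (median 0.09).

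The cycling cells of mutant B also passed the rule more narrowly. Their median of 17 UMIs from the 6 genes was the lowest of the libraries (41 in WT A, 43 in WT B and 37 in mutant A), 11 of its 40 cells had exactly 3 of the genes (7 of 47, 1 of 11 and 3 of 41 in the others), and 47.5% had all 6 (53.2%, 54.5% and 65.9%). Their median of 10906 UMIs was the lowest too. With at least 4 of the 6 genes required, 27 of the 32 kinetochore genes were below 0 (median -0.38). Without mutant B 30 of 32 were below 0 (median -0.57). Mutant A, whose cycling endothelial cells were the deepest (median 18071 UMIs), was the lowest for Prc1. As a description, with all libraries, all 6 genes of the rule were also below 0 (median -0.46). In 5 of them both mutant libraries lay below both WT libraries. The part of depth and of the rule in the kinetochore list was not tested.

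All 16 tested interferon response genes had a log2 fold change above 0 (median 0.53), where 50.9% of all genes had, and in 9 both mutant libraries lay above both WT libraries, where 15.1% of all genes did. Ifit3, an antiviral effector, stood at 20.2, 16.0, 54.6 and 72.1 CPM, and Ifi47, an interferon-induced GTPase, at 111, 69.4, 194 and 175. Ifit1 stood at 64.9, 26.7, 102 and 233 CPM, with 114 of its 316 UMIs in 1 mutant B barcode. Without WT A the median was 1.09, without high doublet scores 0.83, and without mutant B 13 of 17 genes were above 0. In non-cycling endothelial cells 18 of 19 of these genes were higher in the mutant (median 0.25), with 0 of 15366 genes called and 109 at an unadjusted p under 0.05 by edgeR. The direction was the same in both states, which share their libraries.

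**Figure D5:**
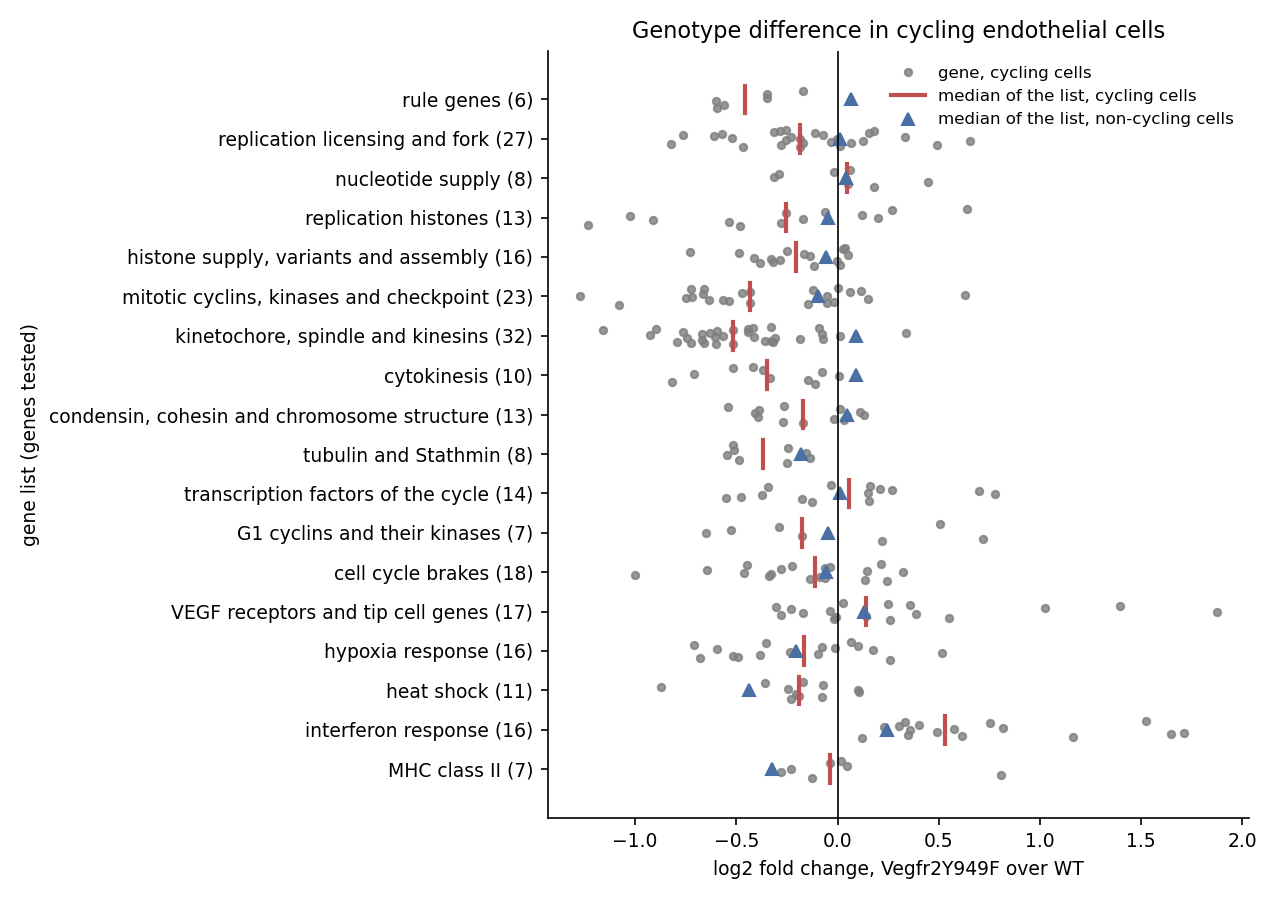
Log2 fold change of mutant over WT in cycling endothelial cells, 1 grey point per gene and a red line at the median of each list, with a blue triangle at the median in non-cycling endothelial cells. The kinetochore list lies below 0 in cycling cells (median -0.52) and near 0 in the others (0.09), and the interferon list lies above 0 in both (0.53 and 0.25); no gene of any list was called in this test.

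Whether the difference between cycling and non-cycling endothelial cells changed with the genotype was tested as an interaction in 14351 genes. edgeR's quasi-likelihood test called 22 (0.153%), 20 higher in the mutant (0.139%) and 2 lower (0.0139%), at a Benjamini-Hochberg adjusted p under 0.05. Without WT A the test called 76 genes and without WT B 4. Several were genes of other cells with most of their UMIs in 1 barcode: 1 mutant B barcode held 319 of 352 UMIs of Hbb-bs and 1 mutant A barcode 299 of 350 of S100a9. Vwf, the von Willebrand factor gene of larger vessels, was called in all 6 alternatives run and was spread over 49 cells. It stood at 46.1, 5.34, 132 and 137 CPM in cycling cells and at 262, 303, 243 and 310 in the others (log2 difference 1.97, SE 0.31; edgeR adjusted p = 2.16e-07). Without WT A the difference was 4.92, and leaving out any other single library gave 1.47 to 2.18. Cycling cells were lower than the others in all 4 libraries, and more so in WT.

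The venous markers as a list, 6 genes with Vwf among them, summed to 144, 128, 366 and 370 CPM in cycling cells and to 540 to 650.0 in the others, so both mutant libraries lay above both WT libraries in cycling cells. The venous-like class held 3 cycling barcodes, 1 in mutant A and 2 in mutant B. The part of these vessel types in the Vwf difference was not tested. The 32 kinetochore genes, none of them a gene of the rule, had a median of -0.65 with 0 called. As a description, the 6 genes of the rule were also all below 0 (median -0.52).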

How the data were processed

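The deposited files hold raw UMI counts per gene and barcode for 4 libraries; the authors made them with Cell Ranger 6.1.1, per the file headers. The submitters' processing notes also name mm10, fastp, UMI-tools and Seurat 4.1.0, with no role given. The members and gene lists were chosen with earlier results of these data known.

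UMIs were summed per library, lineage and state, since cells are not replicates. Sums were tested in edgeR 4.0.16 (R 4.3.3; TMM, filterByExpr, quasi-likelihood, Benjamini-Hochberg), with DESeq2 1.42.0 as an alternative; log2 fold changes are mutant over WT. Shares were compared by an exact two-sided permutation test over libraries. Scrublet, run through Scanpy 1.11.5, gave each barcode a doublet score. Cells were clustered with leidenalg 0.10.2 into 35 clusters. A cluster stayed unnamed where its lead in marker score was under 0.3 or over 30% of its barcodes had high doublet scores. Other grounds were under 3 markers detected, or low UMIs with no class marker among the leading genes. Clusters also stayed unnamed with more leading genes from another class, or with most barcodes outside the lineage of their best class. On simulated sums the edgeR test recovered 151 of 179 genes changed 4-fold (84.4%) among 7748, with 2 false calls. The simulation gave every gene the same dispersion. It therefore does not show the recovery for genes with a larger spread, such as those with most UMIs in 1 barcode.

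Named genes were, outside the lists, the 10 with the largest mean ratio in each direction among genes of at least 50 CPM in the higher state; up to 4 members per list; up to 10 called genes per direction in a genotype test, or the gene of smallest p; and Kdr, Esm1, Cxcr4, Angpt2, Plvap, Mki67, Top2a and Cdkn1a. Others were chosen after their values were seen. Alternatives were thinning to 2000 UMIs, other thresholds of the rule, doublets or second lineages left out, other filters and scalings, the replicate block and leaving out each library. The set letters do not establish pairs: deviations of WT A and mutant A correlated at 0.149 over 7797 genes. Genotype tests in immune, mesenchymal and epithelial cells, and of phase, were not run, because outside the endothelial genotype tests a minimum of 20 cycling cells in every library was set. The endothelial tests had no such minimum and include 11 cells in WT B.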

Additional observations from a re-analysis of the deposited data

Results flagged for a closer look

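Each gene here was flagged because its difference between cycling and non-cycling endothelial cells differed between the genotypes in the interaction test of edgeR (Benjamini-Hochberg adjusted p under 0.05); values are log2 differences, mutant minus WT. Fitted values against libraries at 0 depend on the prior count and are no bounds.

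A Ccl21a gene (ENSMUSG00000094686), a lymphatic chemokine with near-identical copies and so uncertain, had 13.83, with 119 of its 183 UMIs in 1 mutant B barcode. The haemoglobin genes had 4.32 for Hba-a1, 4.52 for Hba-a2 and 3.32 for Hbb-bs, with 213 of 221, 145 of 156 and 319 of 352 UMIs in 1 barcode each; Hba-a1 and Hba-a2 are near-identical, so their split is uncertain. Ager, a gene of alveolar type 1 cells, had 3.03, with 146 of 166 UMIs in 1 barcode. The neutrophil genes S100a9 and S100a8 had 4.60 and 4.33, with 299 of 350 and 226 of 257 UMIs in 1 barcode. The part of these barcodes in the calls was not tested beyond leaving out high doublet scores, after which S100a9 stood at 1.62, Hbb-bs at 0.09 and Ager at 0.45, none of them called.

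Vwf had 1.97, with at most 30 of 257 UMIs in 1 barcode. Mt1, a metallothionein, had 1.67 (57 of 254 UMIs in 1 barcode; 1.02 and not called without high doublet scores) and Thbs1, a matrix glycoprotein, 1.57 (133 of 309). Nppb had -11.86 from 13 UMIs in 1 WT B barcode. Chil3 had -3.39, with 15 UMIs in all.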

How the results depend on the processing

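Few cycling cells limit most values, and mesenchymal and epithelial shares rest on 4 and 2 cells. Thinned to 2000 UMIs, the genotype difference was 0 percentage points for epithelial and -0.035 for mesenchymal cells, and the share of all kept barcodes was 0.282%. With at least 2 of the 6 genes the share was 0.718% of all kept, 0.515% of epithelial and 0.148% of mesenchymal barcodes. Without high doublet scores the mesenchymal difference was -0.00288 percentage points, and without second lineages the mesenchymal share was 0.0177%. Endothelial genes at least 2-fold lower in all libraries numbered 14 without high doublet scores and 20 with at least 4 of the 6 genes. The cause of these changes was not tested.

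Leaving out each library in turn gave genotype differences of 0.0544 to 0.418 percentage points for endothelial, -0.271 (without mutant B) to 1.27 for immune, 0.0288 to 0.0926 for mesenchymal and 0.317 to 0.407 for epithelial cells, and 0.0834 to 0.359 over all. The S phase difference at 2000 UMIs was 3.41 to 11.96 percentage points in endothelial and -18.1 to 0.0328 (without WT A) in immune cells. With all libraries the endothelial S phase difference was 7.69 percentage points at 2000 UMIs and 1.64 with UMIs as counted. Genes called in cycling endothelial cells numbered 2 to 43 and in the interaction 4 to 76. Without a filter on low counts 33 genes were called in cycling endothelial cells. With the set letter as a replicate block 9 were called, against 0 without it, and 430 had an unadjusted p under 0.05; the block left the share differences as they were (0.236 percentage points for endothelial cells), since it averages the same values.

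Among single genes the genotype log2 fold change in cycling endothelial cells turned sign for Kdr (-0.14 to 0.11 when each library was left out), Cxcr4 (-0.65 to 0.70 likewise, -0.077 with the replicate block, -0.095 without high doublet scores) and Cdkn1a (-0.42 to 0.39). Leaving out each library, the interaction turned sign for Hba-a1 (-0.029 to 5.89, and -0.71 without high doublet scores), Ager (-0.26 to 5.00), S100a8 (-7.44 to 13.47), Chil3 (-4.37 to 9.10), Plvap (-0.34 to 0.66) and, as a description of a gene of the rule, Top2a (-0.29 to 0.21, and 0.096 without high doublet scores).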
